A study of Mus musculus with 12 samples.

Results

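The genes that turn arachidonic acid into leukotrienes and prostaglandins were followed in bone marrow cells sorted as monocytic myeloid-derived suppressor cells (M-MDSCs) at 2 ages. The names were looked up in the deposited count table, namely Pla2g4a, Alox5, Alox5ap, Lta4h, Ltc4s, Ptgs1, Ptgs2, Ptges, Ptges3 and Tbxas1, and all 10 of them were among its 23420 genes. The young group held 6 male C57BL/6JNIA mice aged 6 months, and the aged group held 6 male mice of the same strain aged 24 months. The labels give no engineered allele and no treatment for either group. Bone marrow of the tibia was the source, the cells were sorted as CD11b+Ly6G-Ly6Chi, and each mouse gave 1 RNA-seq library. The comparison asks which steps of eicosanoid synthesis differ in transcript level between the 2 ages.

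Cytosolic phospholipase A2, the product of Pla2g4a, frees arachidonic acid from membranes. In the leukotriene branch 5-lipoxygenase (Alox5) oxidises it with the help of the membrane protein FLAP (Alox5ap), after which Lta4h makes the neutrophil attractant leukotriene B4 and Ltc4s makes the cysteinyl leukotrienes. In the prostaglandin branch the cyclooxygenases COX-1 (Ptgs1) and COX-2 (Ptgs2) make a common precursor that Ptges and Ptges3 turn into prostaglandin E2 and Tbxas1 into thromboxane. Myeloid cells of the bone marrow are a well known site of the leukotriene branch, and COX-2 is the inducible cyclooxygenase of activated myeloid cells.

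Totals of counted fragments ran from 8737941 to 16300374 in the aged mice (median 10384679) and from 4613239 to 9079237 in the young (median 8503571). The aligned files were numbered 11 to 16 for young mice and 17 to 26 for aged mice, so age and the order of these numbers cannot be told apart. Young replicates 5 and 6 and aged replicate 1 stood apart from their groups on the first 2 principal components, which held 49.5% and 22.9% of the variance. The label of a monocytic sort was checked against 10 monocyte and sort markers, of which Csf1r averaged 36.5 CPM per kilobase in aged and 34.7 in young mice and Ccr2 8.71 and 10.3 (CPM being counts relative to the scaled library total). On the same list Lyz2, lysozyme, which neutrophils also make, was at 10616 and 11680 CPM per kilobase, Ly6c2 at 908 and 625 and Itgam at 618 and 721. Of the 10 markers 3 were higher with age (Ly6c1, Ly6c2 and Cd14) and 1 was lower (Itgam) by edgeR, where 22.4% of all genes tested were called higher and 23.0% lower. They summed to 11962 to 17230 CPM in aged mice, against 14583 to 19225 in young mice, most of it from Lyz2. The neutrophil granule genes ranged from Mmp8 at 1897 and 1750 CPM per kilobase to Ngp at 34134 and 26652. S100a8, a cytosolic calcium-binding protein that the study also has in its M-MDSC score, was at 91366 and 53730. Summed over 11 neutrophil genes the level was 142190 to 167428 CPM in aged mice, against 91626 to 140876 in young mice, with young replicates 5 and 6 lowest. The ages nearly touched, and of the 11 genes only S100a8 did not overlap between them, while Ltf (log2 fold change -0.056) and Csf3r (-0.21) pointed down without being called. Of the 11 genes 6 were higher with age and 0 lower at an adjusted p under 0.05 (edgeR), beside the same 22.4% and 23.0% over all genes. The neutrophil sum exceeded the monocyte and sort sum in every mouse. The lists are unlike, and S100a8, S100a9, Cxcr2 and Retnlg are all in the study's M-MDSC score. The granule gene Ngp alone exceeded the monocyte and sort sum, at 34273 to 44393 CPM in aged and 24875 to 35745 in young mice. This goes against a label of monocytic cells alone, so every level below is that of the sorted cells as a whole. Resident macrophage genes summed to 42.8 to 847 CPM in aged mice, against 36.5 to 54.4 in young mice, highest in aged replicate 1, and 7 of the 7 tested were higher with age, beside 22.4% of all genes tested. The 10 basophil and mast cell genes summed to 518 to 803 CPM in aged mice, against 640 to 809 in young mice, nearly all of it from Hdc and Kit. Mcpt8, Prss34, Cpa3 and Fcer1a had at most 2 fragments in any mouse, and Cma1 and Tpsb2 were at 0 in every mouse. In such bulk libraries, fewer cells of a type and less RNA per cell cannot be told apart.

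Of the 10 genes, 9 had enough counts for the test and 3 of these differed between the ages. Alox5ap and Ptges3 were higher in aged mice and Ptgs2 was lower. Over all 9742 genes tested by edgeR's quasi-likelihood test with Benjamini-Hochberg adjustment, 45.4% were called, 22.4% higher and 23.0% lower with age, so a share of 3 in 9 is not above the background. The median log2 fold change of the 9 genes was -0.075 beside 0.0062 over all genes tested. In 2 of the 9, Alox5ap and Ptgs2, no aged mouse overlapped a young one, which held for 21.8% of all genes tested (9.68% with the aged mice higher and 12.1% with them lower).

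**Figure D1:**
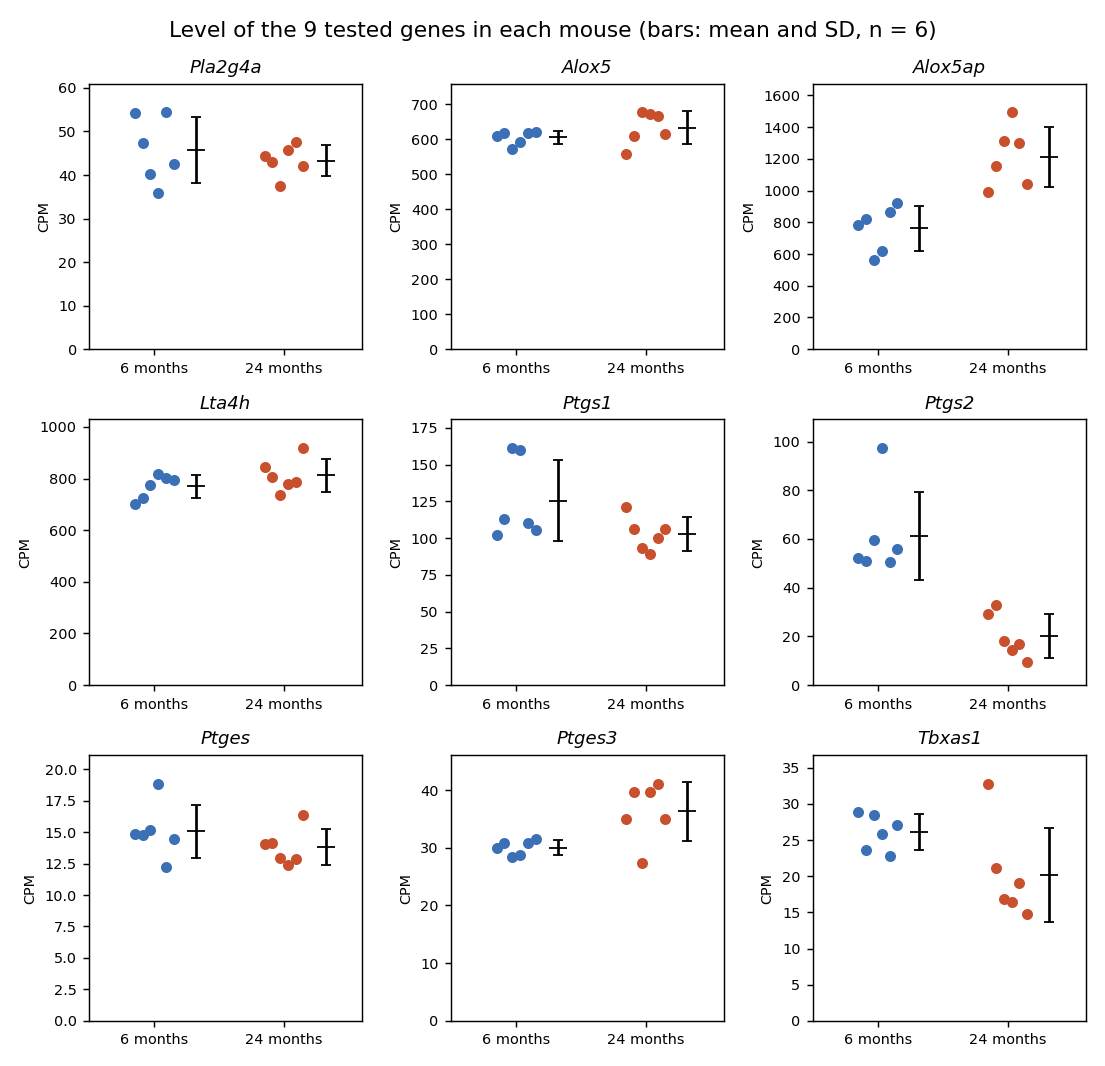
Level of each tested synthesis gene in CPM (vertical axis, starting at 0) in each of the 6 mice aged 6 months and the 6 aged 24 months. Points are mice, and the bars beside them are the mean and SD. The Alox5ap points of the aged mice (992 to 1495 CPM) all lie above the young ones (564 to 924), the Ptgs2 points (9.46 to 33.0) all lie below them (50.4 to 97.4), and the other panels overlap.

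Pla2g4a, at the release step (mm10 chr1:149829622-149961284, minus strand, 18 annotated exons), gave no called difference. It measured 37.4 to 47.6 CPM in aged mice (median 43.6) and 36.0 to 54.5 in young mice (median 44.9), and the aged values lay within the young range. The log2 fold change was -0.075 with an interval of -0.30 to 0.15 (edgeR adjusted p = 0.577). Ptgs2, which fell with age, lies 138839 bases away on the same chromosome with 3 other annotated genes between. The interval for Pla2g4a leaves out a change of the size seen in Ptgs2.

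In the leukotriene branch the transcript of the helper protein was higher with age, and those of Alox5 and Lta4h were not called. Alox5ap, encoding FLAP (chr5:149265058-149288047, plus strand, 5 exons), measured 992, 1153, 1312, 1495, 1297 and 1039 CPM in the aged mice. The young mice gave 782, 821, 564, 618, 864 and 924 CPM. All 6 aged mice were above all 6 young mice, and the lowest young values belonged to replicates 5 and 6. The gene was 1.59-fold higher with age, a log2 fold change of 0.67 ± 0.13 (SE, n = 6 and 6, edgeR adjusted p = 9.4e-04). Without young replicates 5 and 6 the log2 fold change was 0.50 (edgeR adjusted p = 0.00254). Those 2 mice also had the lowest summed neutrophil genes, 91626 and 93033 CPM, and that sum was higher in every aged mouse than in every young one. The part of this in the result was not tested. Alox5ap is a short gene of 854 exon bases, and after a correction of each library for gene length its log2 fold change was 0.31 (edgeR adjusted p = 0.0307).

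Alox5, the 5-lipoxygenase itself (chr6:116410071-116461178, minus strand, 14 exons), lay between 559 and 677 CPM in aged mice (median 640) and between 572 and 621 in young mice (median 614). Aged replicate 1 was the lowest of all 12 mice and aged replicates 4, 5 and 6 the highest. Its log2 fold change was 0.066 ± 0.063 (SE) with an interval of -0.068 to 0.20 (edgeR adjusted p = 0.412), and the sign turned to -0.022 when library totals were used without scaling factors. This was the gene with the smallest spread of the set in young mice, a coefficient of variation of 3.24% against 7.39% in aged mice.

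Lta4h, which hydrolyses leukotriene A4 to leukotriene B4 (chr10:93453396-93484896, plus strand, 19 exons), ranged from 737 to 919 CPM in aged mice (median 798) and from 702 to 816 in young mice (median 786). The ages overlapped, with aged replicate 7 highest and young replicate 1 lowest. The log2 fold change was 0.078, interval -0.068 to 0.22 (edgeR adjusted p = 0.368). Without scaling factors it was -0.0075 and with the length correction -0.0087.

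Ltc4s, the synthase of cysteinyl leukotrienes (chr11:50236472-50238471, minus strand, 5 exons), was close to undetected. The aged mice had 1, 0, 0, 0, 1 and 1 fragments and the young mice 0, 1, 0, 0, 0 and 1. A count of 3, the upper limit that 0 fragments allow, corresponds to 0.188 to 0.35 CPM in the aged and 0.306 to 0.643 CPM in the young libraries, and every value lay under it. No fold change is given, and a difference was not detectable at this depth. Mgst2, a microsomal enzyme that can also conjugate leukotriene A4 with glutathione, was present at 78.9 to 113 CPM in aged and 72.7 to 98.7 CPM in young mice (log2 fold change 0.19, edgeR adjusted p = 0.0998).

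In the prostaglandin branch the inducible cyclooxygenase fell with age. Ptgs2, encoding COX-2 (chr1:150100124-150108012, plus strand, 10 exons), measured 29.3, 33.0, 18.3, 14.3, 16.8 and 9.46 CPM in the aged mice. In young mice it measured 52.4, 51.0, 59.6, 97.4, 50.4 and 55.9 CPM. Every aged mouse lay below every young mouse, with young replicate 6 well above the others of its age. The level at 6 months was 3.08 times that at 24 months (log2 fold change -1.62 ± 0.26 SE, n = 6 and 6, edgeR adjusted p = 2.83e-04). Without young replicate 6 the log2 fold change was -1.44, and without young replicates 5 and 6 it was -1.42 (edgeR adjusted p = 0.00112). The coefficient of variation was 45.0% in aged and 29.6% in young mice, the widest of the tested genes at both ages.

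Ptgs1, encoding the constitutive COX-1 (chr2:36230426-36252269, plus strand, 11 exons), measured 89.3 to 121 CPM in aged mice (median 103) and 102 to 161 in young mice (median 112). Young replicates 5 and 6 stood at 161 and 160 CPM, and the other 4 young mice at 102 to 113. The log2 fold change of -0.29 was not called (interval -0.55 to -0.029, edgeR adjusted p = 0.0656). It passed the threshold without aged replicate 1 (-0.34, edgeR adjusted p = 0.0404), young replicate 1 (-0.34, 0.038) or young replicate 10 (-0.33, 0.0457), and was -0.087 without young replicates 5 and 6 (edgeR adjusted p = 0.455).

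The bases upstream of the 2 cyclooxygenase genes, which differed in response, and of Ptges3 are shown to let their composition be compared. Each is the 250 bases before the RefSeq transcription start in GRCm38.p6 (mm10), all on the plus strand, read 5′ to 3′, with motif matches in capitals. The coordinates are chr1:150099781-150100030 for Ptgs2, chr2:36230176-36230425 for Ptgs1 and chr10:128058732-128058981 for Ptges3.

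Ptgs2: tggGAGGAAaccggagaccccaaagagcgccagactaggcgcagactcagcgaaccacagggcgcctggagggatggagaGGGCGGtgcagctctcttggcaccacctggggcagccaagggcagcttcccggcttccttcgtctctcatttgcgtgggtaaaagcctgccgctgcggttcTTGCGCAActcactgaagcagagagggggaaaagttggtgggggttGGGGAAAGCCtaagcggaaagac

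Ptgs1: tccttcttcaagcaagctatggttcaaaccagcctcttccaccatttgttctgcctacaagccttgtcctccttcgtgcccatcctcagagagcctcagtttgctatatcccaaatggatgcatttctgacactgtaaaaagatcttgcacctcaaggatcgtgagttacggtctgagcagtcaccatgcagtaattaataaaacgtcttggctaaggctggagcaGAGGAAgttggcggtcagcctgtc

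Ptges3: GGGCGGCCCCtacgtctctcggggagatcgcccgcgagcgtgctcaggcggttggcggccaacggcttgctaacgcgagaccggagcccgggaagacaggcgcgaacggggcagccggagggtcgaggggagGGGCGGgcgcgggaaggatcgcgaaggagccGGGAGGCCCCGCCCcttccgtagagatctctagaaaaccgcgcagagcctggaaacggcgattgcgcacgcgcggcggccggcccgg

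The RefSeq start used for Ptgs2 lies 93 bases before the start in the count table. Windows of 9 of the 10 genes were found, Alox5ap being the other one. Letters were searched on both strands, and the share of 32851 RefSeq windows of this length that hold each is given. The PU.1 core was GAGGAA, held by 23.3% of windows. For C/EBP the letters were TTGCNNAA (9.56%). The NF-kB pattern was GGG, any 5 bases and CC (45.8%). The cyclic AMP element was TGACGTCA (1.55%) and the TATA box was TATAAA (12.4%). The remaining patterns were the CCAAT box (33.8%) and the GC box, GGGCGG (32.7%). Ptgs2 held the PU.1, C/EBP, NF-kB and GC box letters, and was the only one of the 9 windows with the C/EBP letters, at 69 bases before the start. In Ptgs1 the PU.1 letters were the only match, at 24 bases before the start. Ptges3 held NF-kB and GC box letters, some of which share bases. The windows of Ptgs2, Ptgs1 and Ptges3 had 13, 5 and 38 CpG dinucleotides and GC contents of 61.6%, 48.0% and 73.2%, beside medians of 6 and 52.4% over all windows. A match describes letters in a window, and no binding was measured.

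Of the 3 terminal prostanoid synthases tested, edgeR called only Ptges3. Ptges3, known both as cytosolic prostaglandin E synthase and as the p23 co-chaperone of Hsp90 (chr10:128058982-128077254, plus strand, 8 exons), measured 34.9, 39.7, 27.4, 39.7, 41.1 and 34.9 CPM in the aged mice. The young mice gave 29.9, 30.9, 28.3, 28.7, 30.8 and 31.5 CPM. All aged mice except replicate 4 were above all young mice, and replicate 4 was below all of them. The log2 fold change was 0.28 ± 0.094 (SE, n = 6 and 6, edgeR adjusted p = 0.026), which is a 1.21-fold higher level. The call was lost when aged replicate 2, 5 or 6 or young replicate 5 or 6 was left out (log2 fold change 0.24 to 0.26, edgeR adjusted p from 0.0529 to 0.0603) and without young replicates 5 and 6 together (0.22, 0.132). It was also lost without scaling factors (0.19, 0.101) and with the length correction (0.17, 0.158), and a processed pseudogene is annotated on chr6:85843980-85844459, whose part in the counted fragments was not tested.

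Ptges, the inducible membrane-bound prostaglandin E synthase (chr2:30889471-30903297, minus strand, 3 exons), measured 12.4 to 16.4 CPM in aged mice (median 13.5) and 12.3 to 18.8 in young mice (median 14.8). The groups overlapped through most of their range. With a log2 fold change of -0.13 and an interval of -0.36 to 0.11 (edgeR adjusted p = 0.358), it was not called, and the interval leaves out a fall of the size seen in Ptgs2.

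Tbxas1, thromboxane A synthase (chr6:38918986-39084579, plus strand, 13 exons), measured 32.8, 21.1, 16.9, 16.4, 19.03 and 14.7 CPM in the aged mice and 28.9, 23.6, 28.4, 25.8, 22.8 and 27.1 CPM in the young. Aged replicate 1 was the highest of all 12 mice and the other 5 aged mice were below all 6 young mice. The log2 fold change of -0.38 ± 0.16 (SE) was not called (edgeR adjusted p = 0.0692). Without aged replicate 1 it was -0.57 (edgeR adjusted p = 0.00122). That mouse had the highest sums of resident macrophage genes (847 CPM, the next aged mouse 252) and of megakaryocyte and platelet genes (28.3 CPM, the next 14.5), and their part in its Tbxas1 level was not tested.

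Per kilobase of exon, 3 genes of the leukotriene branch, Alox5ap, Lta4h and Alox5, stood above every prostaglandin gene at both ages, and Ltc4s was near 0. Alox5ap averaged 1422 CPM per kilobase in aged and 892 in young mice, Lta4h 393 and 372, and Alox5 224 and 214. Ptgs1 followed at 35.9 and 43.8. Each of these 4 was separated from the next in the order without overlap between mice. Below them Ptges3 (18.6 in aged mice), Pla2g4a (15.2), Tbxas1 (10.2), Ptgs2 (4.87) and Ptges (3.78) followed, with overlap between neighbours. In young mice the lower order was Pla2g4a (16.1), Ptges3 (15.4), Ptgs2 (14.7) and Tbxas1 (13.2), neighbours that overlapped, with Ptges (4.13) below all of them. Among the 9742 genes tested Alox5ap ranked 31 by mean level per kilobase, Lta4h 120, Alox5 226 and Ptgs1 1537, whereas Ptgs2 ranked 4497 and Ptges 6603.

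**Figure D2:**
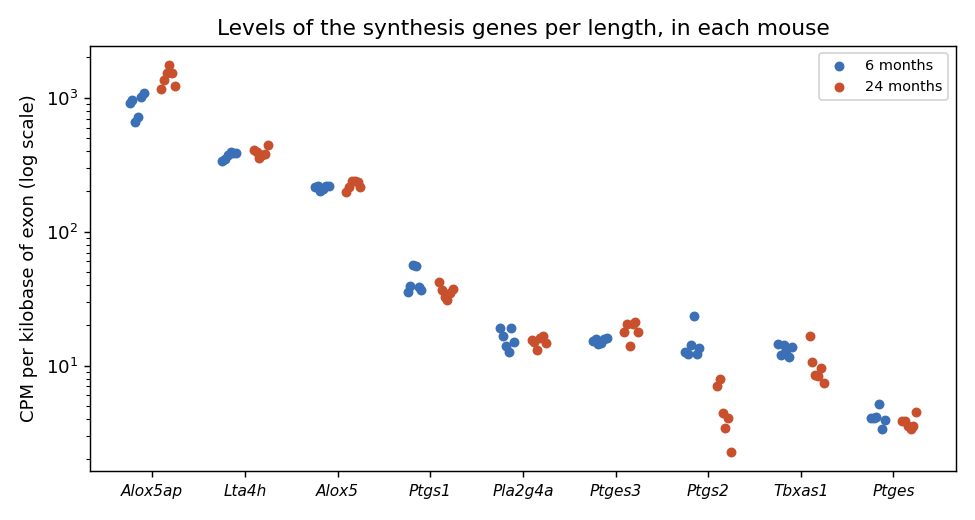
Level of each tested synthesis gene in CPM per kilobase of exon (vertical axis, log scale) in each mouse of 6 and 24 months, with the genes in the order of their mean in young mice. Alox5ap, Lta4h, Alox5 and Ptgs1 form 4 separate steps at each age, and Ptgs2 moves from the level of Tbxas1 in young mice (14.7 and 13.2) to that of Ptges in aged mice (4.87 and 3.78).

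Ratios of counts within a mouse do not depend on the scaling of the libraries, and 4 were computed. The count of Alox5ap over that of Alox5 was 1.69 to 2.22 in aged and 0.987 to 1.49 in young mice, with no overlap. The mean log2 ratio rose by 0.62 (exact two-sided permutation test over 12 mice, p = 0.00216, the smallest it can give, adjusted over 4 ratios 0.00433). The genes differ in length, 854 and 2827 exon bases, and with the length correction, which the ratio does not have, the log2 fold changes were 0.31 for Alox5ap and 0.066 for Alox5.

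Ptgs2 over Ptgs1 was 0.0889 to 0.311 in aged and 0.369 to 0.61 in young mice, again with no overlap. The mean log2 ratio fell by 1.41 (exact two-sided permutation p = 0.00216, adjusted 0.00433). Inducible cyclooxygenase was the smaller of the pair in every mouse, and more so at 24 months.

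The ratio of Alox5 to Ptgs1 compares the entry enzymes of the branches and was 4.61 to 7.54 in aged and 3.55 to 5.97 in young mice. Its mean log2 difference of 0.33 did not pass (exact two-sided permutation p = 0.0996, adjusted 0.133). Tbxas1 over Ptges, a comparison of terminal synthases, was 0.9 to 2.33 in aged and 1.37 to 1.95 in young mice, with a log2 difference of -0.30 (exact two-sided permutation p = 0.16, adjusted 0.16). Both passed without aged replicate 1, at 0.41 (exact permutation, adjusted p = 0.0433) and -0.44 (adjusted p = 0.0202). The other way, Alox5 over Ptgs1 was 0.11 without young replicates 5 and 6 (exact permutation, adjusted p = 0.443), and Tbxas1 over Ptges was -0.052 over the 4 same-numbered pairs (exact permutation, adjusted p = 0.875).

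**Figure D3:**
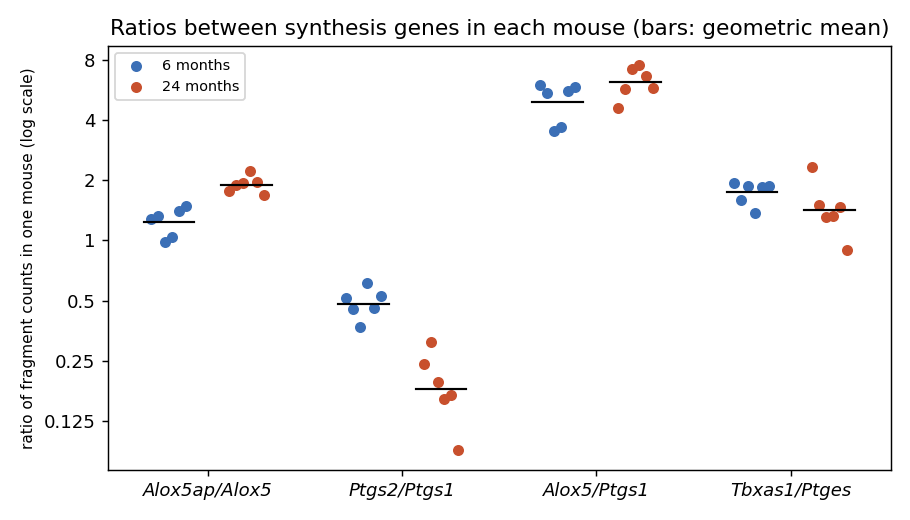
Ratio of fragment counts of 2 synthesis genes within each mouse (vertical axis, log scale), for mice of 6 and 24 months. Points are mice and horizontal bars are geometric means. The ages do not overlap for Alox5ap/Alox5 (geometric means 1.24 in young and 1.90 in aged mice) and Ptgs2/Ptgs1 (0.483 and 0.181), and they overlap for the other 2 ratios.

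For the 3 genes with the smallest p-values, the genes of most similar pattern were found by the root mean square difference of centred log2 CPM over the 12 mice. Closest to Ptgs2 was Thbs1, the matrix protein thrombospondin 1, with a difference of 0.22 where the spread of Ptgs2 around its own mean was 0.96. Thbs1 averaged 326 ± 122 CPM in aged and 1021 ± 227 in young mice (SD, n = 6 each). Zfp467 (0.32), a zinc finger gene, and Fos (0.33), an immediate early transcription factor at 180 and 454 CPM, came next.

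Alox5ap lay closest to H3f3a (0.069), which encodes a histone H3.3, to Eif4ebp1 (0.075), a repressor of translation initiation, and to Fpr2 (0.077), a receptor of formyl peptides and lipoxin A4, where its own spread was 0.41. Ptges3 lay closest to Hsd11b1 (0.087), an enzyme that reactivates glucocorticoids, Ube2n (0.090), a ubiquitin-conjugating enzyme, and Arl6ip1 (0.096), with an own spread of 0.20. Those neighbours of Ptges3 therefore left a larger share of its spread unmatched than Thbs1 did for Ptgs2. These likenesses are over the same 12 libraries and include the age difference itself.

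A wider list of 72 genes for release, conversion, transport, breakdown and sensing of eicosanoids was drawn up from textbook roles, of which 71 were in the table and 30 were tested. In this list 13 genes were higher with age, 6 were lower and 11 were not called, with a median log2 fold change of 0.26 beside 0.0062 over all genes tested (called share over all genes 22.4% higher and 23.0% lower). Without young replicates 5 and 6 the number higher was 6, and without young replicate 5, young replicate 6, aged replicate 2 or aged replicate 6 it was 7 or 8. Young replicates 5 and 6 also had the lowest summed neutrophil genes (91626 and 93033 CPM), whose part in this count was not tested.

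Of the 10 tested genes listed under arachidonate release and reacylation 6 were higher and 1 lower, beside 22.4% higher and 23.0% lower over all genes tested. The largest rise was in Pla2g16, a phospholipase of few counts (10 to 33 fragments in aged and 0 to 11 in young mice), with a log2 fold change of 1.37 ± 0.47 (SE, edgeR adjusted p = 0.0279). Mgll, monoacylglycerol lipase, which frees arachidonic acid from 2-arachidonoylglycerol, fell from 86.5 to 114 CPM in young mice to 53.0 to 62.0 in aged mice. The ages did not overlap, with the aged mice lower, which held for 12.1% of all genes tested. Its log2 fold change was -0.70 ± 0.078 (SE, edgeR adjusted p = 1.93e-05). Mboat7, which returns arachidonic acid to phosphatidylinositol and was the most abundant of this set, measured 310 to 425 CPM in aged mice, against 210 to 306 in young mice (log2 fold change 0.47, edgeR adjusted p = 0.00137).

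Among the other tested genes listed under leukotrienes and lipoxygenases 3 of 5 were higher and 0 lower, beside 22.4% higher and 23.0% lower over all genes tested. Ggt1, a gamma-glutamyl transferase that can convert leukotriene C4 to D4, measured 9.25 to 32.4 CPM in aged mice, against 7.40 to 9.002 in young mice (log2 fold change 1.19 ± 0.24, edgeR adjusted p = 0.00112). Cotl1, an actin-binding protein that also binds 5-lipoxygenase, was higher at 1543 to 1772 CPM against 977 to 1508 in young mice (log2 fold change 0.36, edgeR adjusted p = 0.00964). Alox12 and Alox15, other lipoxygenases, stayed at or below 14 fragments in every mouse and were not tested. Of 8 further prostanoid enzymes only Ptges2 had enough counts, and its log2 fold change of -0.17 was not called (edgeR adjusted p = 0.232).

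Of the tested genes listed under transport and breakdown 2 were higher, 2 lower and 2 not called, beside 22.4% higher and 23.0% lower over all genes tested. Cyp4f18, which hydroxylates leukotriene B4, was higher in aged mice (log2 fold change 0.40 ± 0.15, 187 to 370 CPM against 178 to 256, edgeR adjusted p = 0.0431). Abcc4, an exporter of prostaglandins, was lower (log2 fold change -0.42 ± 0.096, 62.1 to 96.4 CPM against 89.3 to 109, edgeR adjusted p = 0.0029).

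Of the 8 receptors tested 2 were higher, 3 lower and 3 not called, beside 22.4% higher and 23.0% lower over all genes tested. Ltb4r1, the high-affinity receptor of leukotriene B4, measured 419 to 448 CPM in aged mice, against 239 to 342 in young mice (log2 fold change 0.52 ± 0.082, SE, edgeR adjusted p = 2.46e-04). Fpr2 measured 510 to 678 CPM in aged mice, against 274 to 405 in young mice (log2 fold change 0.67 ± 0.11, edgeR adjusted p = 2.61e-04). For both receptors every aged mouse was above every young mouse, which held for 9.68% of all genes tested. The same was seen for the summed neutrophil level (142190 to 167428 CPM against 91626 to 140876), whose part in these results was not tested. Lower were the prostanoid receptors Ptgdr for prostaglandin D2 (log2 fold change -1.67 ± 0.33, 2 to 22 fragments in aged and 19 to 47 in young mice, edgeR adjusted p = 0.00101), Ptger1 (-0.97, 0.0199) and Ptgir for prostacyclin (-0.32, 0.00163). Ptger1 also had few counts, 5 to 14 fragments in aged and 8 to 25 in young mice, and its ages overlapped. The prostaglandin E2 receptors Ptger2 (log2 fold change -0.20, edgeR adjusted p = 0.105) and Ptger4 (-0.060, 0.769) were not called.

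**Figure D4:**
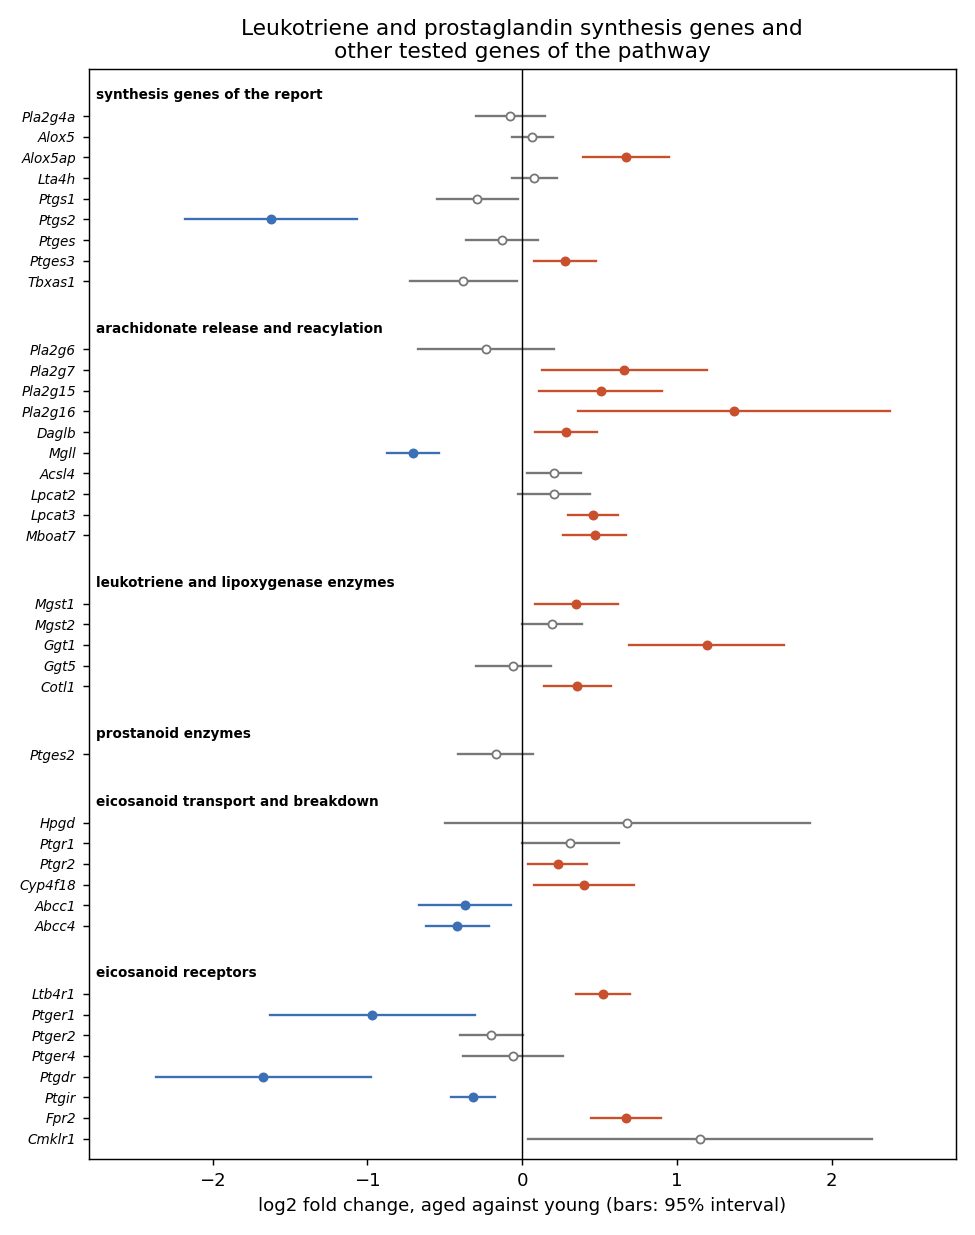
Log2 fold change of aged against young mice (horizontal axis) for the 9 tested synthesis genes and 30 other tested genes of the pathway, grouped by role. Points are edgeR estimates, bars are 95% intervals, and filled points passed an adjusted p of 0.05. Alox5ap (0.67) lies to the right and Ptgs2 (-1.62) to the left of 0 among the synthesis genes, and in the wider list 13 filled points lie to the right and 6 to the left.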

How the data were processed

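RNA of bone marrow cells sorted as M-MDSCs was sequenced as paired ends on a NovaSeq6000 from stranded libraries. The authors deposited raw counts of fragments per gene, made with featureCounts 2.0.0 on reverse-stranded fragments with a mapping quality of at least 60 over a UCSC mm10 annotation, per the file headers. The aligner was not given in the sources used here. Groups came from the age label and columns from the sample names, and 0 columns were left unassigned.

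The counts were filtered with filterByExpr and scaled by TMM. Genes were tested with edgeR 4.0.16 (quasi-likelihood, all 12 mice, age as the only term), with Benjamini-Hochberg adjustment over 9742 genes and a threshold of 0.05. The study's methods name DESeq2, run here (1.42.0) as an alternative along with limma 3.58.1 (voom), in R 4.3.3. The other alternatives were scaling factors, filters, gene length, thinning, the replicate block and leaving out mice. Replicates were separate mice, each with its own library, and no 2 libraries of 1 age agreed within counting noise. Levels are CPM with TMM scaling, also per kilobase of exon. Ratios used exact permutation with 0.5 added to each count. A 95% interval of a log2 fold change rests on the spread between mice, and limits at 0 (3 counts) cover counting error only.

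The genes, lists and rules were chosen with earlier results of these data known. Named were the 10 genes, and of the wider list, for each role, the called gene with the largest rise, that with the largest fall, that with the smallest p and the most abundant. For like patterns the 3 nearest genes were named. Named outside that rule, after their values were seen, were Mgst2, Alox12, Alox15, Ptger1, Ptger2, Ptger4 and Ptgir. Promoter windows are from RefSeq (GRCm38.p6).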

Additional observations from a re-analysis of the deposited data

Results flagged for a closer look

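In 18 groups of 6 mice (9 genes at 2 ages) the gap between the most extreme mouse and its neighbour was compared with the range of the group, a check that chance alone fails in about 1 group of 20. It was failed by 2 groups. Ptgs2 in young replicate 6 was 97.4 CPM, with a gap of 0.805 of the range of the young mice. Tbxas1 in aged replicate 1 was 32.8 CPM, with a gap of 0.647 of the range of the aged mice.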

How the results depend on the processing

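Alox5ap and Ptgs2 kept their direction and their calls in all 10 other settings and without each mouse in turn, at log2 fold changes of 0.31 to 0.83 and -1.77 to -1.42 over the settings, and 0.60 to 0.74 and -1.81 to -1.44 without a mouse. Genes called higher in the set were 1 (Alox5ap) without scaling factors, with the length correction and without young replicates 5 and 6, a setting chosen after seeing the data, and 1 to 2 without a mouse. Those called lower were 2 with limma-voom (Tbxas1 added), without scaling factors (Ptgs1 added) and with the length correction (Tbxas1 added), and 1 to 3 without a mouse. In the wider list 8 were higher without scaling factors, 6 without young replicates 5 and 6 and 7 to 14 without a mouse. Over all genes tested 1392 were higher and 1765 lower without young replicates 5 and 6, against 2185 and 2240 in the main fit. Without scaling factors 1682 were higher and 2762 lower, and the median of all genes moved to -0.081. There Alox5 turned to -0.022 and Lta4h to -0.0075, and with the length correction Lta4h was -0.0087. The cause was not tested.

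Without a mouse, the log2 ratios spanned 0.55 to 0.67 for Alox5ap over Alox5, -1.57 to -1.21 for Ptgs2 over Ptgs1, 0.24 to 0.41 for Alox5 over Ptgs1 and -0.44 to -0.17 for Tbxas1 over Ptges. Replicate numbers 1, 2, 5 and 6 occur at both ages, but 0 of 4 same-numbered pairs deviated together (correlations -0.246 to -0.065), so a number is only a name. With the number as a replicate block Pla2g4a was 0.043, and 3469 genes were called in place of 4425. Over the 4 pairs the log2 ratio of Alox5ap over Alox5 was 0.76 and of Ptgs2 over Ptgs1 -1.17, both at an exact permutation adjusted p of 0.25, since 4 pairs cannot go below 0.125. Depth limits Ltc4s and the other genes of few counts.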
